A study of Mus musculus with 7 samples.

Results

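The genes described here are 39 of the 22880 genes with deposited values. Most of them fold proteins in the endoplasmic reticulum (ER), remove misfolded ones or signal their load. A further 11 are targets of the transcription factor Atf4, not all of which act in the ER. The genes were taken by symbol from a list of ER chaperones, degradation genes, stress sensors and Atf4 targets, and all 39 were found. RNA had been sequenced from P14 optic nerves of 4 control mice (CT; FASN lox/lox) and 3 mutant mice (cMU; olig2cre FASN lox/lox), on a C57Bl/6 background. Both nerves of a mouse made 1 sample. Controls carried the floxed Fasn allele without Cre, and in mutants Cre was driven by the Olig2 promoter, which is active in the oligodendrocyte (OL) lineage. Whether the other cells of the nerve kept Fasn was not measured in these samples. Fasn encodes fatty acid synthase, and its mRNA served as a check of the labels: its level was 205 ± 25.1 FPKM (SD, n = 4) in controls and 56.3 ± 11.3 FPKM (SD, n = 3) in mutants. FPKM divides the reads of a gene by transcript length and by library size, so that levels of different genes can be set side by side.

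OLs make large amounts of myelin membrane proteins and lipids through the ER, and they are known to be sensitive to disturbances of protein folding there. In the ER, nascent glycoproteins are held by chaperones, receive disulfide bonds from isomerases, and are sent back to the cytosol for degradation if they fail to fold. Load on this system is sensed by Ire1 (encoded by Ern1), which splices the mRNA of Xbp1, by Atf6, and by Perk (Eif2ak3), which phosphorylates eIF2alpha and thereby raises translation of Atf4. Xbp1 and Atf6 act mainly on chaperone and degradation genes, and Atf4 acts mainly on genes of amino acid supply and on stress effectors. Therefore, the 16 chaperones and isomerases and the 6 degradation genes were described apart from the 11 Atf4 targets.

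Promoters of the first class are known for a pair of short elements, and these are shown because the members differ in whether they hold them. The ER stress response element (ERSE) has the letters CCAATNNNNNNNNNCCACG, in which NF-Y binds the left part and Atf6 the right part, and the related ERSE-II has the letters ATTGGNCCACG. Windows from 250 bases before to 50 bases after each RefSeq start (GRCm38.p6) were searched on both strands. Only exact matches were counted, so that variant sites of an element were missed. Of the 39 members 33 had such a window. ERSE was found in 9 of 18 chaperone and degradation genes (Hspa5, Hsp90b1, Dnajc3, Creld2, Calr, Canx, Pdia6, Syvn1 and Derl3) and in 0 of 11 Atf4 targets. In all, 0.137% of genes with a window held it. ERSE-II was found in Herpud1 and Dnajb11, against 0.0444% of all genes, and no member held both elements. Hyou1, Manf, Clgn, Derl1, Atf6 and Ppp1r15b had no window in the table. The sites below belong to members whose values are given in the next paragraphs, with the fixed letters of each element in capitals, written on the strand on which the element reads forward.
Hspa5, ERSE (chr2:34772015-34772053, plus strand): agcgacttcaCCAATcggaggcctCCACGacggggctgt
Dnajc3, ERSE (chr14:118937817-118937855, plus strand): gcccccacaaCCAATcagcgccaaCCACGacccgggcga
Calr, ERSE (chr8:84847065-84847103, plus strand): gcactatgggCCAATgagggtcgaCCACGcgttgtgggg
Canx, ERSE (chr11:50325790-50325828, minus strand): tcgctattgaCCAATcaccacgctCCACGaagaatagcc
Pdia6, ERSE (chr12:17266481-17266519, plus strand): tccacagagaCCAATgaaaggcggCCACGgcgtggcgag
Herpud1, ERSE-II (chr8:94386367-94386397, plus strand): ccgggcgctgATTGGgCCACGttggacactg
Dnajb11, ERSE-II (chr16:22857847-22857867, plus strand): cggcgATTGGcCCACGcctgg

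The 250 bases before the start of Hspa5 and of Herpud1 are shown because these genes stand for the 2 kinds of element. Every exact match is in capitals, and variant sites stay in lower case. Both lie on the plus strand of GRCm38.p6. The Herpud1 sequence also held the C/EBP-ATF element (TTGCATCA), to which Atf4 binds with C/EBP factors. An exact match to this element was found in 2 members, Herpud1 and Chac1, and in 1.03% of all genes. The core of the unfolded protein response element (TGACGTGG) was found in 0 members and in 0.714% of all genes. Variant Atf4 sites in the other members were not searched for.
Hspa5 (chr2:34771840-34772089): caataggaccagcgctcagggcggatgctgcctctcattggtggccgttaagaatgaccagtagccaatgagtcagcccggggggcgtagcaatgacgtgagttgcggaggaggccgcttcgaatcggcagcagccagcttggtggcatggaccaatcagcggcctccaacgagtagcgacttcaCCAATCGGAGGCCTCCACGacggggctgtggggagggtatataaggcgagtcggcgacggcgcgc
Herpud1 (chr8:94386179-94386428): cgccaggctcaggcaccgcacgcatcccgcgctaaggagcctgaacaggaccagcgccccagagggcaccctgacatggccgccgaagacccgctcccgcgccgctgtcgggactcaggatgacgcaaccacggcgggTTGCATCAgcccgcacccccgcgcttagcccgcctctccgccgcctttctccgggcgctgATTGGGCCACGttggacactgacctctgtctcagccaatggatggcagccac

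All 39 members passed the filter on low values (3 or more samples at 0.5 FPKM or above) and were compared between mutant and control nerves with limma-trend on log2(FPKM + 0.5). This scale makes changes of the lowest genes look smaller. Benjamini-Hochberg adjustment ran over the 13866 genes tested. The members were expressed over a wide range. In control nerves the highest were Calr with 272.5 ± 18.5 FPKM, Psat1 with 269.1 ± 6.48 and Phgdh with 253 ± 18.3 (SD, n = 4), 3 neighbours in the order that did not differ beyond their spread. Hsp90b1, Pdia3 and P4hb followed between 190.5 and 201.3 FPKM, and Derl3, Chac1 and Trib3 were lowest, each below 1 FPKM on average. With 27457615 to 43461751 recovered reads per sample, Hspa5 rested on 6920 to 11406 reads, whereas Derl3 rested on 13 to 39, Trib3 on 10 to 63 and Chac1 on 17 to 69, so that only large differences of these 3 genes were detectable.

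Only 2 of the 39 members passed the threshold of an adjusted p under 0.05. Herpud1 was higher and Clgn was lower in mutant nerves. Over all genes tested 363 passed, which is 2.62%, with 1.26% higher and 1.36% lower, so that the share of members was near that of all genes. The median log2 fold change of the members was 0.08, beside 0.05 for all genes, with 24 members above 0 and 15 below. The mutant and control groups did not overlap for 7 members, of which Dnajc3, Herpud1, Ern1 and Sesn2 were above and Clgn, Edem1 and Phgdh below the controls. Among all genes 21.1% did not overlap, 12.9% with mutants above and 8.26% with mutants below. For each of these 7 members the exact permutation test gave a two-sided p of 0.0571, the smallest that groups of 4 and 3 allow.

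**Figure D1:**
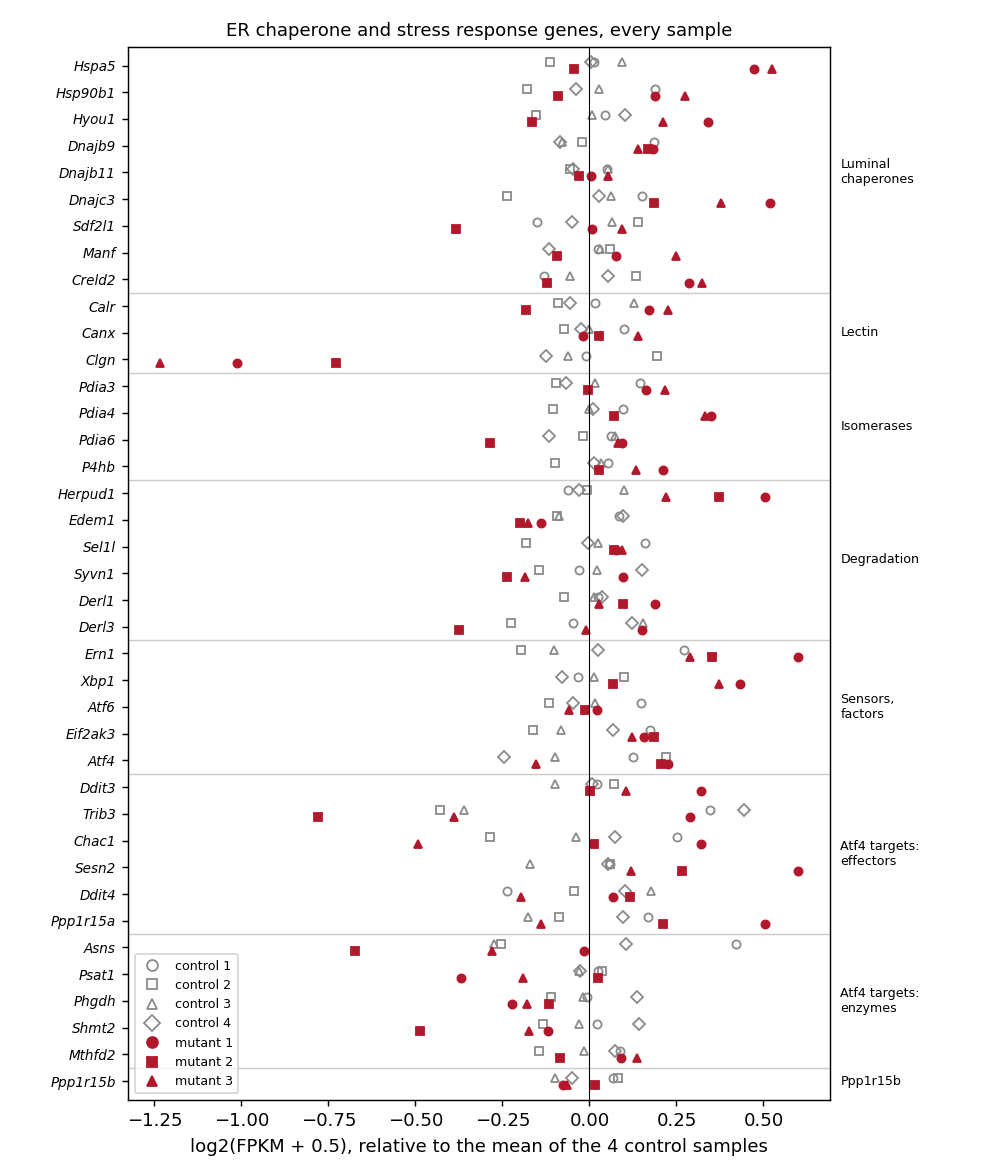
Level of each of the 39 members in every sample, as log2(FPKM + 0.5) relative to the mean of the 4 control samples, with members in rows by role, control samples as open grey and mutant samples as filled red symbols, and the symbol shape giving the sample number. Clgn lies to the far left in all 3 mutant samples, and among luminal chaperones and isomerases the mutant 2 square lies at or left of the other mutant symbols in most rows.

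Clgn was the member that differed most. It encodes calmegin, a calnexin-like chaperone of the ER best known from male germ cells (ENSMUSG00000002190, GRCm38 chromosome 8 from 83389867 to 83428552, plus strand). Controls 1 to 4 had 34.1, 39.4, 32.9 and 31.4 FPKM, and mutants 1 to 3 had 16.8, 20.51 and 14.3 FPKM. Every mutant sample lay well below every control sample. The mean was 34.4 ± 3.46 FPKM (SD, n = 4) in controls and 17.2 ± 3.12 (SD, n = 3) in mutants, a ratio of 0.499. The log2 fold change was -0.99, with a standard error of 0.122 (95% interval -1.27 to -0.71, limma-trend adjusted p = 0.0148). Clgn was also called by edgeR on recovered reads (log2 fold change -1.05, adjusted p = 0.0199) and with the replicate number as a block (-1.03, adjusted p = 0.0126), a fit in which control 4 has no partner and adds nothing to the difference. Its size hardly depended on any sample, with -1.12 to -0.87 when each was left out in turn, but it was not past the threshold without control 2 (adjusted p = 0.0506), control 3 (0.0693) or mutant 3 (0.0621).

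Calnexin (Canx) and calreticulin (Calr), the widely expressed lectin chaperones that hold glycoproteins during folding, did not follow Clgn. Canx was at 131, 116, 122 and 120.4 FPKM in controls and at 120.9, 125 and 135 FPKM in mutants. These values overlapped, and the log2 fold change was 0.05 (95% interval -0.10 to 0.20), an interval that does not reach the value of Clgn. Calr was at 275, 256, 297 and 262 FPKM in controls and at 307, 239.5 and 318 FPKM in mutants, with mutant 2 below and the other two above all controls (log2 fold change 0.07, 95% interval -0.17 to 0.31). As a share of the Canx level of the same sample, Clgn was at 26.0%, 33.8%, 26.9% and 26.1% in controls and at 13.9%, 16.4% and 10.6% in mutants. The groups did not overlap on this share, which follows from the values of Clgn and Canx above and adds no separate evidence.

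**Figure D2:**
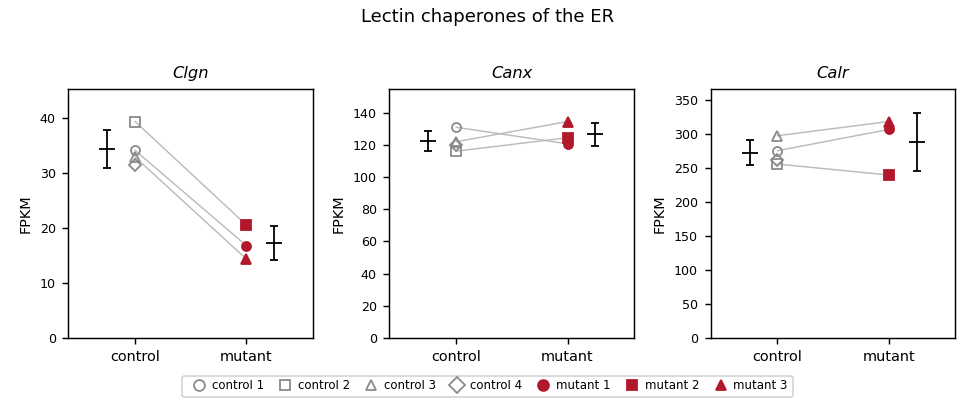
FPKM of Clgn, Canx and Calr in control and mutant samples, with symbols for the sample number, grey lines between samples of the same number, and bars for the mean and SD. Clgn lay between 31.4 and 39.4 FPKM in controls and between 14.3 and 20.51 FPKM in mutants, whereas the groups of Canx and Calr overlapped.

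In whole nerve, fewer cells of a type and less RNA per cell cannot be told apart. Markers of newly formed OLs moved in the same direction as Clgn: 9 of 10 had a log2 fold change below 0, 4 passed the threshold as lower (Gpr17, Tmem2, Rras2 and Neu4), and the summed level of the list was 1036 to 1130 FPKM in controls and 771 to 860 in mutants. Their median log2 fold change was -0.38. Of 8 markers of OL progenitor cells (OPCs), 6 had a log2 fold change below 0 (median -0.25). Cspg4 passed as lower by limma-trend, and 2 of the 8 did by edgeR. Their summed levels were 329 to 366 FPKM in controls and 296 to 359 in mutants. The part of these cell types in the Clgn difference was not tested. Mature OL markers were abundant in every sample, as the tissue label implies, with summed levels of 11451 to 12652 FPKM in controls and 8829.5 to 11643 in mutants, and 9 of 12 markers had a log2 fold change below 0 (median -0.17), while Klk6 alone passed, as higher. Of 7 markers of plasma and B cells, which use Xbp1 heavily, 4 passed the filter on low values. These 4 summed to 3.20 to 4.80 FPKM in controls and to 8.23, 2.88 and 5.46 FPKM in mutants 1 to 3. In no list was a marker at 0 in every sample.

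Luminal chaperones and co-chaperones, led by BiP (Hspa5), the ER member of the Hsp70 family, came next by role. None of the 9 passed the threshold by limma-trend or by edgeR. At an unadjusted p under 0.05, 2 were higher (Hspa5 and Dnajc3), beside 15.9% of all genes. A log2 fold change above 0 was seen in 8 of the 9, beside 8329 of all 13866 genes tested. The median of the 9 was 0.13, beside 0.05 for all genes. Hspa5 was at 164, 149.9, 173 and 163 FPKM in controls and at 225, 157 and 233 FPKM in mutants. Mutants 1 and 3 were thus well above all controls, while mutant 2 lay within their range. The mean was 162 ± 9.42 FPKM (SD, n = 4) against 205 ± 41.8 (SD, n = 3), and the log2 difference of 0.32 had a standard error of 0.13 (adjusted p = 0.178). Without mutant 2 the difference was 0.50 and passed the threshold (adjusted p = 0.0238), so that this sample decided the call. Over all genes, leaving out mutant 2 raised the number past the threshold from 363 to 907, of which 563 were higher (4.06%).

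Dnajc3 encodes p58IPK, a co-chaperone of BiP, and was the only luminal chaperone whose groups did not overlap. It was at 29.5, 22.4, 27.7 and 27.0 FPKM in controls and at 38.2, 30.2 and 34.6 FPKM in mutants, so that the lowest mutant was just above the highest control. The log2 fold change was 0.36 with a standard error of 0.109 (adjusted p = 0.0999). With the replicate number as a block it was 0.37 and passed (adjusted p = 0.0326). The mutants were above the controls of their number by 0.37, 0.42 and 0.32 on the log2 scale. Their common sign follows from groups that do not overlap and adds no separate evidence. Hsp90b1 (GRP94), Hyou1, an exchange factor for BiP, and Dnajb9 and Dnajb11, which are J-domain partners of BiP, had log2 fold changes of 0.12, 0.13, 0.16 and 0.01. Manf and Creld2, small ER proteins known to be induced by ER stress, had 0.08 and 0.16. Sdf2l1, a partner of Dnajb11, had -0.10, and the 95% intervals of these 7 genes all held 0. The row of Manf spans Rbm15b and Dcaf1, Dnajb11 overlaps an antisense gene, and Hsp90b1 overlaps Gm15344 on the same strand over 977 bases. Reads of these rows may not be told apart from those of their neighbours.

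None of the 4 protein disulfide isomerases passed either. Pdia4 had the largest log2 fold change (0.25, 95% interval 0.06 to 0.44, adjusted p = 0.127), with 26.1 ± 1.53 FPKM (SD, n = 4) in controls and 31.3 ± 3.35 (SD, n = 3) in mutants, and passed without mutant 2 (0.34, adjusted p = 0.0435). Pdia3, the isomerase that works with Canx and Calr, and P4hb, also a subunit of prolyl hydroxylase, both had 0.12. Pdia6 had -0.04.

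Mutant 2 was the lowest of the 3 mutants for 13 of the 16 chaperones and isomerases (81.25%), beside 48.8% of all genes tested. It was also the lowest for 66.7% of the 6 degradation members and 69.7% of 33 other Atf4 targets. In 34 other ER folding genes the share was 61.8%, and in 33 genes of translocation and N-glycosylation 57.6%. It was 45.5% in the 11 Atf4 targets and 20% in the 5 sensors and factors. On average, the 9 luminal chaperones lay 0.23 and 0.25 above the control mean in mutants 1 and 3 on the log2 scale, and at -0.06 in mutant 2, whereas the controls ran from -0.05 to 0.04. The 4 isomerases showed the same picture, with 0.20, -0.05 and 0.19 in mutants 1 to 3 and -0.08 to 0.09 in controls. The groups therefore overlapped through 1 mutant sample. Markers of meningeal fibroblasts, which are secretory cells, also had their lowest sum among mutants in mutant 2, although only 6 of the 10 genes (60%) were lowest there one by one. The summed level was 5396, 2828 and 3290 FPKM in mutants 1 to 3 and 2115 to 2946 FPKM in controls, all 10 had a log2 fold change above 0, and 0 passed by limma-trend or edgeR, with 7 higher at an unadjusted p under 0.05. With the replicate number as a block, 8 of these 10 passed as higher, as did 9 of 12 astrocyte and 2 of 10 endothelial markers. In that fit 6.42% of all genes passed as higher. Summed astrocyte markers were higher in all 3 mutants (4262, 5097 and 5180 FPKM, with 3276 to 3721 in controls), and 4 of 12 passed as higher (Slc1a2, Aldh1l1, Gja1 and Aldoc). Endothelial markers were at 385, 425 and 387 FPKM in mutants and at 317 to 377 in controls. Of these 10, 0 passed by either tool, with 5 higher at an unadjusted p under 0.05. The share of all genes higher at that unadjusted level was 15.9%. Mutant 2 was also the lowest mutant for 4 of 4 plasma and B cell markers tested and for 6 of 9 neuron markers. Summed neuron markers were at 31.4, 24.8 and 56.8 FPKM in mutants 1 to 3 and at 25.8 to 37.3 in controls. In the remaining marker lists the share ran from 0 of 12 mature OL markers to 2 of 5 Schwann cell markers (40%). The part of any of these cell types in the values of the chaperones was not tested.

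**Figure D3:**
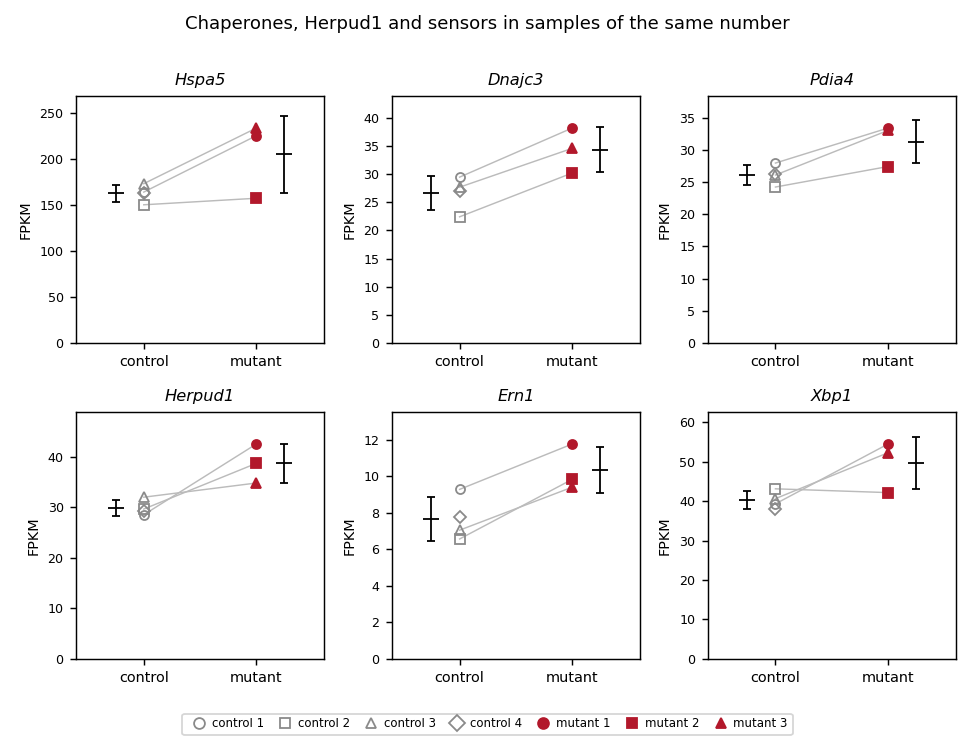
FPKM of Hspa5, Dnajc3, Pdia4, Herpud1, Ern1 and Xbp1 in control and mutant samples, with symbols for the sample number, grey lines between samples of the same number, and bars for the mean and SD. The mutant groups of Dnajc3, Herpud1 and Ern1 lie above all controls, and mutant 2 lies among the controls for Hspa5, Pdia4 and Xbp1.

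Of the 6 genes of ER-associated degradation, Herpud1 rose. It encodes a ubiquitin-like membrane protein of the Hrd1 ligase complex and is known as a strongly inducible gene of the unfolded protein response (ENSMUSG00000031770, GRCm38 chromosome 8 from 94386438 to 94395377, plus strand). Controls 1 to 4 had 28.5, 29.7, 32.0 and 29.2 FPKM, and mutants 1 to 3 had 42.5, 38.7 and 34.8 FPKM. All mutants were above all controls, mutant 3 by the smallest distance. The mean rose from 29.9 ± 1.51 FPKM (SD, n = 4) to 38.7 ± 3.86 (SD, n = 3), that is by 0.37 on the log2 scale (95% interval 0.19 to 0.54, standard error 0.0789, limma-trend adjusted p = 0.0491). This call was just inside the threshold. It was not made with the replicate number as a block (0.36, adjusted p = 0.0691), by edgeR on recovered reads (0.32, adjusted p = 0.0731), or with any of the 7 samples left out (adjusted p = 0.0572 without mutant 2 to 0.118 without control 2). The pairs of samples 1 to 3 differed by 0.57, 0.38 and 0.12. Herpud1 overlaps the antisense gene Gm15890 over 535 bases.

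The other degradation genes did not pass. Edem1, a mannosidase-like protein that hands glycoproteins to degradation, was at 12.1, 10.6, 10.7 and 12.2 FPKM in controls and at 10.3, 9.84 and 10.0 FPKM in mutants. All mutants lay below all controls, but by little (log2 fold change -0.17, 95% interval -0.35 to 0.01, adjusted p = 0.222). Syvn1, the Hrd1 ligase itself, and Sel1l, its partner, had -0.11 and 0.08. Derl1 and Derl3, derlins of the exit channel, had 0.10 and -0.08. Apart from Herpud1, no difference in a gene of this complex was detectable with these samples.

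**Figure D4:**
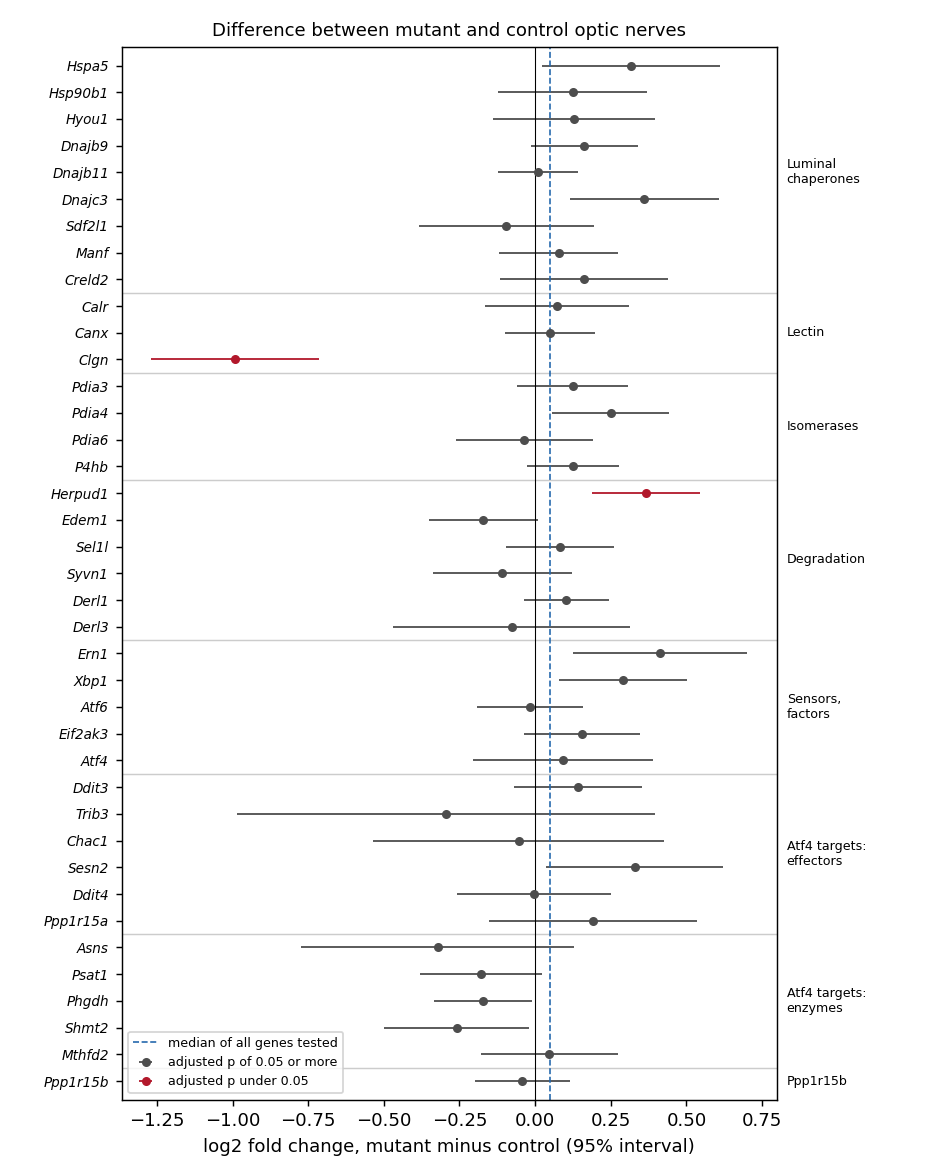
Log2 fold change (mutant minus control) of each member from limma-trend, with 95% intervals, by role; red marks the members past an adjusted p of 0.05 and the dashed line the median of all genes tested, 0.05. Clgn at -0.99 and Herpud1 at 0.37 are the 2 red points, and most other intervals hold 0.

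Among the sensors, Ern1 and Xbp1 of the same branch had the largest values. Ern1, which encodes the sensor Ire1, was at 9.28, 6.56, 7.04 and 7.74 FPKM in controls and at 11.8, 9.82 and 9.40 FPKM in mutants. Its groups did not overlap, although mutant 3 was close to control 1. The log2 fold change was 0.41 with a standard error of 0.127 (adjusted p = 0.102), and with the replicate number as a block it was 0.42 and passed (adjusted p = 0.0407). Xbp1, the factor made from the mRNA that Ire1 splices, was at 39.3, 43.1, 40.6 and 38.1 FPKM in controls and at 54.5, 42.2 and 52.3 FPKM in mutants. As for Hspa5, mutants 1 and 3 were above and mutant 2 was among the controls (log2 fold change 0.29, standard error 0.0929, adjusted p = 0.111). Without mutant 2 it passed (0.40, adjusted p = 0.0305). A level per gene does not separate the spliced from the unspliced form, so splicing was not measured. Atf6 and Eif2ak3 had log2 fold changes of -0.02 (95% interval -0.19 to 0.16) and 0.16 (-0.04 to 0.35).

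With the replicate number as a block, 2 members passed as higher (Dnajc3 and Ern1) and 1 as lower (Clgn). In that fit 6.42% of all genes passed as higher and 1.94% as lower, so the 2 of 39 higher members again lay near the share of all genes. By edgeR on recovered reads, 0 members passed as higher, beside 0.985% of the genes tested there, and Clgn as lower, beside 1.45%. At an unadjusted p under 0.05, 7 members were higher (Hspa5, Dnajc3, Pdia4, Herpud1, Ern1, Xbp1 and Sesn2) and 3 lower (Clgn, Phgdh and Shmt2), whereas among all genes 15.9% were higher and 8.5% lower.

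The Atf4 branch was then examined. Atf4 itself, whose protein is controlled mainly at translation, was at 48.8, 52.2, 41.7 and 37.7 FPKM in controls and at 52.4, 51.7 and 40.2 FPKM in mutants. Samples of the same number were close to each other and the groups overlapped widely, with a log2 fold change of 0.09 (95% interval -0.20 to 0.39). Ddit3, which encodes the pro-apoptotic factor CHOP, was at 9.21, 9.54, 8.42 and 9.12 FPKM in controls and at 11.4, 9.07 and 9.78 FPKM in mutants (log2 fold change 0.14, 95% interval -0.07 to 0.35, adjusted p = 0.38). Mutant 1 was above all controls by the largest distance, and mutant 2 was among them. The Ddit3 gene overlaps Mars on the other strand over 68 bases.

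Of the 11 Atf4 targets 0 passed the threshold by limma-trend or by edgeR, and their median log2 fold change was -0.05. At an unadjusted p under 0.05, 1 was higher and 2 were lower, beside 15.9% and 8.5% of all genes. Of the 6 stress effectors 3 had a log2 fold change above 0 and 3 below. Among them, Sesn2, a stress-induced regulator of mTORC1, was at 4.10, 4.10, 3.42 and 4.08 FPKM in controls and at 6.19, 4.81 and 4.30 FPKM in mutants, all above the controls (log2 fold change 0.33, adjusted p = 0.165). Sesn2 overlaps the gene Gm12981 on the same strand over 6089 bases. Ppp1r15a (GADD34), which targets the phosphatase of eIF2alpha, had 0.19 (95% interval -0.15 to 0.54), and its constitutive counterpart Ppp1r15b, which is not an Atf4 target, had -0.04 (95% interval -0.20 to 0.12). Ddit4, an inhibitor of mTORC1, and Chac1, which degrades glutathione, had -0.004 and -0.05, and Trib3, a pseudokinase, had -0.29 with a wide interval of -0.98 to 0.40. As a mean, the effectors were at 0.35, -0.03 and -0.17 in mutants 1 to 3 and between -0.12 and 0.13 in controls.

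Of the 5 enzymes 1 had a log2 fold change above 0 and 4 below. Phgdh, the first enzyme of serine synthesis, was at 251, 233.3, 249 and 277 FPKM in controls and at 216, 232.5 and 223 FPKM in mutants. All mutants were below all controls, but mutant 2 and control 2 almost met (log2 fold change -0.17, 95% interval -0.33 to -0.01, adjusted p = 0.179). Psat1, the next enzyme of that pathway, had -0.18 (95% interval -0.38 to 0.02), Shmt2, which passes serine carbon to folate in mitochondria, had -0.26 (-0.50 to -0.02), and Asns, asparagine synthetase, had -0.32 (-0.77 to 0.13). Mthfd2, a mitochondrial folate enzyme, had 0.05 (-0.18 to 0.28). In 4 of these 5 genes every mutant was below the control of the same number, beside 2411 of all 13866 genes tested. As a mean the enzymes were at -0.13, -0.27 and -0.14 in mutants and between -0.12 and 0.11 in controls, whereas the 5 sensors and factors were at 0.29, 0.16 and 0.11 in mutants and between -0.06 and 0.14 in controls. In mutant 3 the effectors (-0.17) were as low as the enzymes, and differences between these means were not tested.

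**Figure D5:**
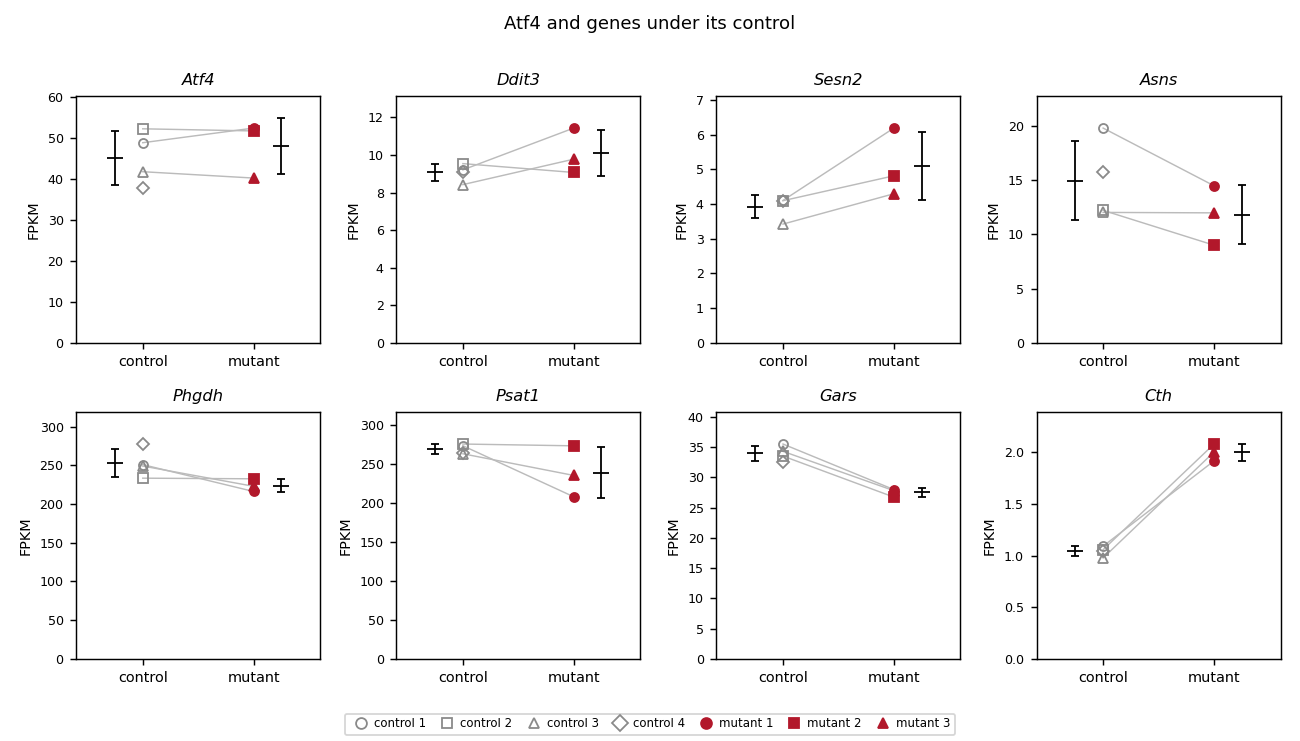
FPKM of Atf4, of 5 members under its control or in its pathway, and of Gars and Cth, further Atf4 targets that passed the threshold, in control and mutant samples, with symbols for the sample number, grey lines between samples of the same number, and bars for the mean and SD. Atf4, Ddit3, Asns and Psat1 overlap between the groups, Gars lies below 28 FPKM in mutants only, and Cth lies near 1 FPKM in controls and near 2 FPKM in mutants.

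Other genes of the same pathways were read from lists. Of 34 further folding and calcium-binding genes of the ER, Rcn2, which encodes a calcium-binding protein of the reticulocalbin family, passed as higher: its mean was 47.9 ± 1.39 FPKM (SD, n = 4) in controls and 65.7 ± 9.59 (SD, n = 3) in mutants (log2 fold change 0.44 with a standard error of 0.0896, adjusted p = 0.0437). In this list 31 of 34 genes had a log2 fold change above 0, beside 8329 of all 13866 genes tested, and the median was 0.17 beside 0.05. All mutants lay above all controls for 12 of the 34 (12.9% of all genes), and 16 were higher and 0 lower at an unadjusted p under 0.05 (15.9% and 8.5% of all genes). Calu, a relative of Rcn2, was at 210.3 ± 14.4 and 261.5 ± 15.3 FPKM (adjusted p = 0.0595). With the replicate number as a block 4 of them passed as higher (Rcn2, Txndc5, Fkbp7 and Fkbp10), beside 6.42% of all genes. By edgeR on recovered reads 0 passed, with Rcn2 at an adjusted p of 0.0562, and with 1 sample left out Rcn2 passed in 2 of 7 fits (adjusted p = 0.0365 to 0.135). Of 33 genes of translocation and N-glycosylation, 23 other degradation genes and 22 other sensors and factors, 0 passed in either direction, with medians of 0.08, 0.04 and 0.03. At an unadjusted p under 0.05, 7, 4 and 2 of these were higher and 1, 0 and 0 lower, and by edgeR 0 passed. With the replicate number as a block Srpr and Tusc3 of the translocation list passed as higher (adjusted p = 0.0421 and 0.0466). These 2 of 33 lay near the 6.42% of all genes.

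Among 33 other Atf4 targets, 2 passed, in opposite directions. Cth, cystathionine gamma-lyase, an enzyme of cysteine synthesis, rose from 1.04 ± 0.048 FPKM (SD, n = 4) to 2.00 ± 0.0821 (SD, n = 3), a ratio of 1.92. On the scale of log2(FPKM + 0.5) the difference was 0.70 (limma-trend adjusted p = 0.0214, standard error 0.105), which the added 0.5 makes smaller at this level. Cth rested on 34 to 71 reads per sample. Gars, glycyl-tRNA synthetase, fell from 33.9 ± 1.27 FPKM to 27.5 ± 0.67 (log2 fold change -0.30, standard error 0.0578, adjusted p = 0.0392). Gars was also called by edgeR (adjusted p = 0.0326), whereas Cth was not (adjusted p = 0.0565). With each of the 7 samples left out in turn, Cth passed in 3 fits (adjusted p = 0.0328 to 0.0961) and Gars in 1 (0.0488 to 0.132). Their list had a median of -0.06, with 15 genes above 0 and 18 below. Iars, Cars and Tars, further tRNA synthetases, were at -0.27, -0.21 and -0.23 without passing. The amino acid transporters Slc7a11 and Slc38a2 were at 0.66 and 0.69, passing only with the replicate number as a block (adjusted p = 0.0186 and 0.0377). Nupr1, at 0.44, also passed with the block (adjusted p = 0.0491), whereas the transporter Slc7a3 was at -0.34 without passing. In the block fit 4 of the 33 passed as higher and 1 as lower, beside 6.42% and 1.94% of all genes.

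Heat shock genes of the cytosol and mitochondria, which serve folding outside the ER, were set beside the ER members for comparison. Of 25 tested, 0 passed in either direction, and their median log2 fold change was -0.04. At an unadjusted p under 0.05, 3 were higher and 2 lower, beside 15.9% and 8.5% of all genes. By edgeR 0 passed as well. With the replicate number as a block, Hspb8 and Bag3, partners in chaperone-assisted autophagy, passed as higher (0.40 and 0.58, adjusted p = 0.0368 and 0.0279). These 2 of 25 lay near the 6.42% of all genes that passed as higher in that fit.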

How the data were processed

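RNA of P14 optic nerves from 4 control and 3 mutant mice was sequenced as polyadenylated RNA with a stranded kit. The authors aligned reads to GRCm38 with STAR (2.5.1b) and estimated expected counts with RSEM (1.2.22), per the labels and the study's methods. They deposited 1 table with normalized counts, a signal per gene made by dividing the estimated count by a size factor, and FPKM values. Its columns on the authors' own comparison were not used. The strand setting of the counting is not given in the sources used here. A gene was kept if 3 or more samples reached 0.5 FPKM, and the kept genes were fitted with limma-trend (limma 3.58.1, R 4.3.3) on log2(FPKM + 0.5) by genotype alone. Adjustment by Benjamini-Hochberg covered 13866 genes, with a threshold of 0.05.

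Reads were recovered from the steps of low normalized counts. Of these low values 71.7% to 77.7% were whole reads within a tolerance of 0.011 read, since RSEM gives fractions in steps of 0.01. Rounded recovered counts were tested with the quasi-likelihood test of edgeR (4.0.16), an alternative chosen after seeing the data. Replicates differed by more than counting noise (median chi-square per gene 2.09 to 5.74), so each was kept. Samples of the same number deviated together (correlation 0.168 to 0.409 across genes over 3 pairs, and -0.353 to 0.0371 between unlike numbers of samples 1 to 3), although control 4 reached 0.205 with mutant 1, and therefore the number was also fitted as a block, where control 4 has no partner. The fits were checked on simulated data. The members and lists were chosen with earlier results of these data known. Values per sample are given for members past the threshold, members whose groups do not overlap, Atf4, Xbp1, Ddit3 and Hspa5. Canx and Calr were added after their values were seen, as were Pdia4 and the genes of the lists that did not pass.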

Additional observations from a re-analysis of the deposited data

Results flagged for a closer look

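Of 43 groups examined for a sample far from the others, 1 was flagged, and chance alone flags about 1 in 20. Among the control samples, control 3 was the lowest for Sesn2, at 3.42 FPKM, with a gap to the nearest control that made up 0.967 of the range of the 4 controls, more than Dixon's critical value. Without control 3 the log2 fold change of Sesn2 was 0.27 (limma-trend adjusted p = 0.323), beside 0.33 with all samples.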

How the results depend on the processing

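Clgn kept its direction and passed the threshold under every alternative that kept all samples, with log2 fold changes of -1.08 to -0.97, and Herpud1 kept its direction under all alternatives. The count of members past the threshold as higher was 1, and it was 0 with no filter on low values, with median-ratio scaling, with the same total in each sample, with the deposited normalized counts and by edgeR on recovered reads. It was 4 with sample quality weights (Dnajc3, Pdia4, Ern1 and Xbp1), 2 with the replicate block, and 0 to 3 with 1 sample left out. The count of lower members was 1 under all of these, and 0 to 1 with 1 sample left out. Of all genes tested 363 passed, and 95 did with no filter, 234 with the same total in each sample, 1525 with sample quality weights, 1159 with the replicate block and 6 to 907 with 1 sample left out. The causes were not tested. The mean difference of the 16 chaperones and isomerases was 0.0525. This mean includes Clgn at -0.99, while 13 of the 16 were above 0 and their median was 0.12. It moved by more than the smaller of the 2 group SDs to -0.0249 with normalized counts, -0.000245 with median-ratio scaling and 0.00434 by edgeR. It did so too with 1 sample left out, at 0.012 to 0.1305, the highest without mutant 2. The stress effectors (0.0517) did so with 1 sample left out, at -0.097 (without mutant 1) to 0.160. The degradation genes (0.0322) moved less but were below 0 with normalized counts, median-ratio scaling, sample quality weights, edgeR and without control 2 or mutant 1, and the effectors with normalized counts, weights and edgeR. Sensors and enzymes kept their sign in all alternatives.

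Small differences changed sign. Dnajb11 was at -0.0438 with median-ratio scaling, -0.0682 with normalized counts, -0.00667 with the replicate block and -0.0429 by edgeR. Canx was at -0.00416, -0.0287 and -0.000862 with median-ratio scaling, normalized counts and edgeR. Mthfd2 was at -0.00103 and -0.0243 with median-ratio scaling and normalized counts, Calr at -0.00615 with normalized counts, and Ddit4 at 0.0305 with the replicate block. With 1 sample left out, sign changes fell in the ranges -0.0127 to 0.0279 (Dnajb11), -0.189 to 0.0493 (Sdf2l1), -0.00765 to 0.163 (Manf), -0.00559 to 0.199 (Calr), -0.101 to 0.0887 (Pdia6), -0.192 to 0.0704 (Derl3), -0.0556 to 0.0324 (Atf6), -0.240 to 0.166 (Chac1), -0.0832 to 0.0919 (Ddit4) and -0.00106 to 0.113 (Mthfd2). The count test planned for whole reads was not run, because under 95% of low values were whole. Nothing says that a sample number marks a litter or batch, and p-values measure the spread between these mice only.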
